A study of Mus musculus with 6 samples.

Results

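The mitochondrial ribosomal protein genes were taken as every gene whose symbol in the deposited table is Mrpl or Mrps followed by a number and at most 1 letter, a rule on names that used no measured value. It found 78 of the 14868 genes in the table, 49 with symbols of the large subunit (Mrpl) and 29 with symbols of the small subunit (Mrps). The study cultured naïve CD4+ T cells, which are helper T cells before their first antigen, of 2 genotypes on the C57BL/6J background, wild type (WT) and Ikzf4-/-. Ikzf4 encodes Eos, a zinc finger transcription factor of the Ikaros family. All cultures received antibodies to CD3 (5 µg/mL) and CD28 (2 µg/mL) on the plate, which stimulate the T cells, and interleukin-4 (10 ng/mL) with an antibody against interferon gamma (10 µg/mL), which drive the T helper 2 (Th2) fate, for 72 h. There were 3 libraries of total RNA per genotype. The labels do not say whether these were separate mice or cultures, so p-values measure only the spread between these libraries. The labels describe neither how the Ikzf4 allele was made nor the age of the mice.

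Mitochondria hold their own ribosome, which translates the few proteins encoded in mitochondrial DNA, all of them subunits of the respiratory chain and of ATP synthase. Its RNA comes from mitochondrial DNA, while its proteins are encoded in the nucleus, made in the cytosol and imported. Some have a counterpart in the bacterial ribosome and others are found only in mitochondria. T cells that leave quiescence build mitochondria, and mitochondrial translation is known to matter for their growth and effector function.

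The genotype labels were checked on Ikzf4 (normalized read count 756, 499.6 and 483 across the WT libraries against 25.2, 10.5 and 38.2 across the Ikzf4-/- libraries; log2 fold change -4.64, limma adjusted p = 0.000389), and every library matched its label. Over the genes in the deposited table, libraries held 34701390 to 40604346 reads, as implied by the step between their lowest values. On the first principal component (40.2% of the variance), WT libraries lay at -41.3, -12.5 and -5.26 and Ikzf4-/- libraries at 11.1, 17.1 and 30.8. The genotypes did not overlap on it, and WT replicate 1 stood apart from the other libraries. The 8 CD4 T cell markers summed to 115991 to 121032 in WT and 120770 to 124994 in Ikzf4-/- libraries, and 1 of them, Cd5, was called (log2 fold change 0.33, limma adjusted p = 0.0306). The 6 Th2 markers summed to 31242 to 43828 and to 23306 to 26972, with 3 (Il4, Il13 and Il4ra) called, all lower in Ikzf4-/- cells. The part of the lower Th2 markers in the values below was not tested. Markers of other cells were low. The summed level over both genotypes ran from 51.1 to 90.4 for B cells (2 genes), from 232 to 423 for CD8 T cells (2 of 2), from 149 to 299 for NK cells (1 of 3 genes with a row) and from 6.03 to 13.6 for myeloid cells (1 of 6). The genotypes' ranges overlapped for each of these 4 lists, and Ncr1 and Klrb1c of NK cells and Lyz2, Itgam, Csf1r, Cd14 and Adgre1 of myeloid cells have no row in the table used here.

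The comparison asks whether Th2 cells that develop without Eos express the protein genes of the mitochondrial ribosome at another level. None of the 78 genes was called at an adjusted p under 0.05 by limma fitted over all genes, where 1.77% of the 14864 genes tested were called, 1.2% lower and 0.572% higher in Ikzf4-/- cells. The count was also 0 without WT replicate 1, the library that stood apart. At an unadjusted p under 0.05 there were 7 members, 4 lower and 3 higher in Ikzf4-/- cells (8.97%, against 18.1% of all genes). The authors' deposited table had an adjusted p under 0.05 for 2 members, Mrpl14 and Mrpl23, where 6.34% of its genes with an adjusted p passed. The median log2 fold change, Ikzf4-/- over WT, was 0.02 over the members, 0.02 for Mrpl and 0.01 for Mrps genes, against 0.00 over all genes tested. 45 members lay above 0 and 33 below. In bulk RNA, a change in the RNA per cell and a change in the share of cells of a type cannot be told apart.

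The intervals around these changes were narrow. For 73 of the 78 members the 95% interval of the log2 fold change lay within 0.32 of 0, which is 25% up or 20% down, and for 77 the fold lay within 1.5 either way. The former held for 46.8% of all genes tested and for 81.8% of the 5133 other genes in the level range of the members, Mrpl53 aside. The exceptions to the narrower limit were Mrpl14, Mrpl23, Mrpl47, Mrpl32 and Mrpl53, and the last was also the exception to the wider one. All 29 Mrps genes lay within the narrower limit. With the median standard error of the members (0.0611 on the log2 scale), a gene had to change by 0.28, or 1.21-fold, to reach the p of the last gene called (0.000874). The size needed was smaller for members with a smaller standard error and larger for the others. The fold changes of the members had a standard deviation of 0.0917 on the log2 scale and a median size of 0.0473, against 0.156 and 0.0716 for the other genes in the same level range. Values of one genotype all lay to one side of the other for 8 members (10.3%), 6 lower and 2 higher in Ikzf4-/- cells, against 23.1% of all genes. The members thus spread less around 0 than the other genes did, which is a description and was not tested.

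**Figure D1:**
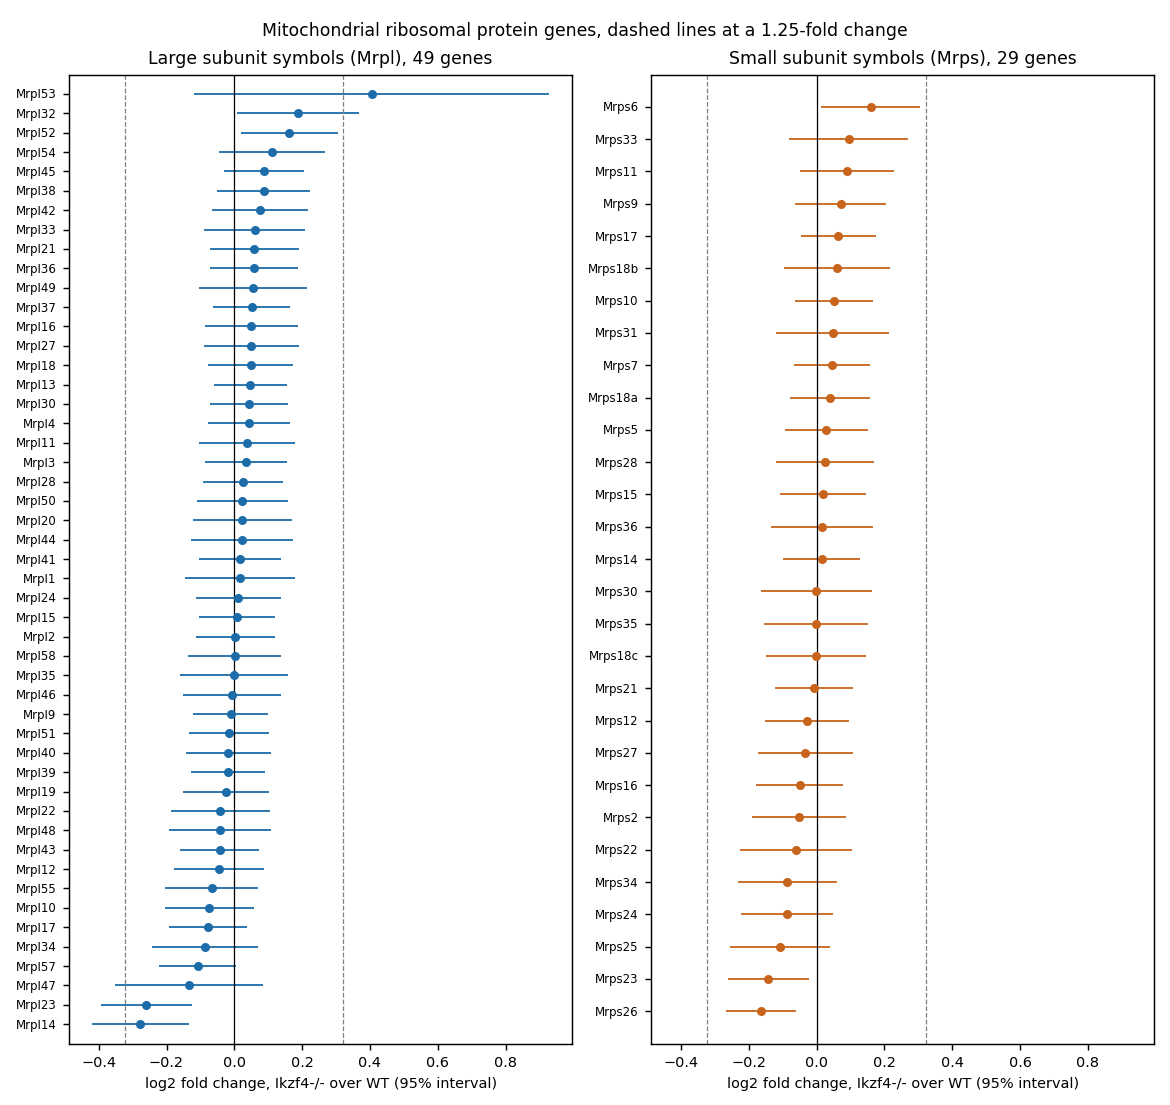
Log2 fold change (Ikzf4-/- over WT) of each member with its pointwise 95% interval from the limma fit, Mrpl genes on the left and Mrps genes on the right, sorted by fold change. Mrpl14 and Mrpl23 at the bottom and Mrpl53 at the top stand away from the other genes, and the intervals of 73 genes lie between the dashed lines at a log2 fold change of 0.32 either way.

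**Figure D2:**
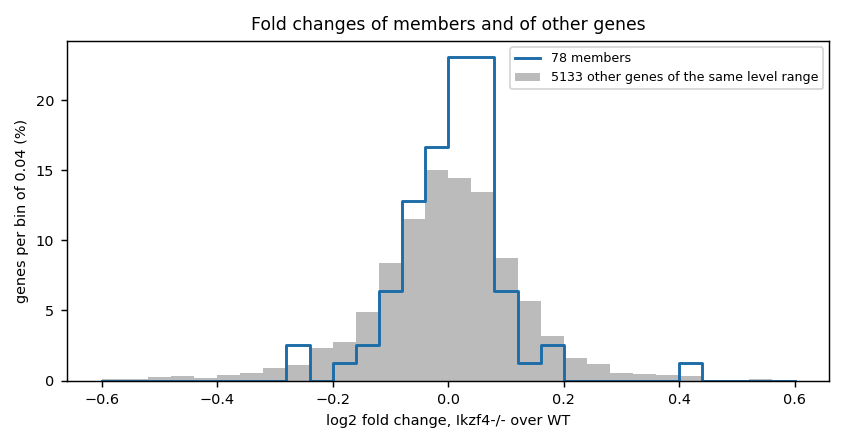
Share of genes (y axis, percent) in bins of the log2 fold change (x axis) for the 78 members (line) and for 5133 other genes in the level range of the members, Mrpl53 aside (bars). 44 of the other genes lie beyond the axis, and the members have a standard deviation of 0.0917 against 0.156.

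Promoter sequences were compared as a feature that the rule did not use. RefSeq promoters (GRCm38.p6, from 250 bases before to 50 after a start) were matched by symbol for 69 of the 78 members, 75 promoters in all. The ETS core CCGGAAG, a motif of factors such as GABPA that act on many nuclear genes of mitochondria, stood on either strand in 26 of 75 member promoters (34.7%), 17.2% of the 13169 promoters of tested genes and 8.86% of all 32851 promoters. The core GCGCATG of nuclear respiratory factor 1 (NRF1) stood in 8 of 75 member promoters (10.7%), 6.64% of the 13169 promoters of tested genes and 3.91% of all 32851 promoters. The E-box CACGTG, a motif of MYC among others, stood in 7 of 75 member promoters (9.33%), 9.79% of the 13169 promoters of tested genes and 7.15% of all 32851 promoters. The ETS core and the NRF1 core stood together in 4 member promoters (5.33%, against 1.5% for tested genes). Neither of these 2 stood in 45 member promoters (60%, against 77.7% for tested genes), so most of the 75 promoters held neither. The 3 motifs were counted separately, none containing another. Median GC content was 58.7% in member promoters and 60.7% in those of tested genes. The median log2 fold change was -0.01 for the 26 members with the ETS core and 0.02 for the 43 without.

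The following stretches, written 5′ to 3′ on the strand of the gene and free of annotated exons, are shown for the member with the lowest fold change among those with an exon-free stretch (Mrpl23, chr7:142532831-142533011), a small subunit gene whose genotypes did not overlap (Mrps23, chr11:88204138-88204387), a member at the upper end (Mrpl52, chr14:54426659-54426908) and a member with both motifs, chosen after its sequence was seen (Mrpl22, chr11:58171414-58171660). Each lies on the plus strand of GRCm38.p6, and capitals mark the ETS core (CTTCCGG when read on the other strand) and the NRF1 core. The Mrpl23 stretch ends before the RefSeq start but lies after the outermost GENCODE start.
Mrpl23: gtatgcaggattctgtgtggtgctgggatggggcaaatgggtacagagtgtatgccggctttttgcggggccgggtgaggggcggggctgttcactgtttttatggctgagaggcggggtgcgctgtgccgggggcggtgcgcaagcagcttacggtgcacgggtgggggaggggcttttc
Mrps23: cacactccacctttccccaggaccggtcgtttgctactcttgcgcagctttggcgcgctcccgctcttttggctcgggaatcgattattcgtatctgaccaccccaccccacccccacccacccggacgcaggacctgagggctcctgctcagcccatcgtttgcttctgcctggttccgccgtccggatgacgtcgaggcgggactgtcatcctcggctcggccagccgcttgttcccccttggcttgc
Mrpl52: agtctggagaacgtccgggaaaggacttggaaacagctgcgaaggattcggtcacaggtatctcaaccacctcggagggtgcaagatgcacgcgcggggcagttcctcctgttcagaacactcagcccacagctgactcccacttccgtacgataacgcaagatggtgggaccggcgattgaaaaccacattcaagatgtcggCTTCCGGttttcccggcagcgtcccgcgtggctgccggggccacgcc
Mrpl22: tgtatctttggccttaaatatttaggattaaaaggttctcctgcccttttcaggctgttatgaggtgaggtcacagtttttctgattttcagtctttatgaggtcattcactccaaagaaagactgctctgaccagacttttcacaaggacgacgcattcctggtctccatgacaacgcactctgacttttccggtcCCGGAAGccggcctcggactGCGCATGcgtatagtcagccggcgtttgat
The ETS core began 47 bases before the start of Mrpl52 and 53 bases before that of Mrpl22, where the NRF1 core followed at 33. The Mrpl23 and Mrps23 stretches held none of the 3 motifs, but Mrps23 is counted above among the promoters with an ETS core, which lies beyond its printed stretch.

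Mrpl14 and Mrpl23 were the members with the lowest fold changes. Mrpl14 (ENSMUSG00000023939, chr17:45686322-45698495, plus strand) encodes a protein at the face of the large subunit where the assembly factor MALSU1 docks. Its normalized read count was 1984, 1732 and 1892 across the WT libraries against 1490.0, 1597 and 1536 across the Ikzf4-/- libraries. Every Ikzf4-/- library lay below every WT library. The means were 1869.7 ± 127 against 1541 ± 53.4 (SD, n = 3 each, WT first), with a log2 fold change of -0.28, SE 0.06, 95% interval -0.42 to -0.13, limma adjusted p = 0.0595. For Malsu1 itself the log2 fold change was 0.06 (limma adjusted p = 0.743). Tmem63b, whose start lies 63 bases away on the opposite strand, had a log2 fold change of 0.00. Exons of other genes, Tmem63b among them, cover 11.2% of the exon bases of Mrpl14. Whether the counting used strand is not given in the sources used here.

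Mrpl23 (ENSMUSG00000037772, chr7:142532686-142540747, plus strand) encodes a protein at the exit of the peptide tunnel, and a stretch before its RefSeq start is printed above. Its normalized read count was 2308, 2041 and 2287 across the WT libraries against 1844, 1823 and 1866 across the Ikzf4-/- libraries. The Ikzf4-/- libraries lay close together and below all WT libraries. The means were 2212 ± 149 against 1844 ± 21.5 (SD, n = 3 each, WT first), with a log2 fold change of -0.26, SE 0.06, 95% interval -0.39 to -0.13, limma adjusted p = 0.0595. Both passed in the authors' deposited table, Mrpl14 with an adjusted p of 0.0102 and Mrpl23 with 0.0105. Without 1 library in turn, the limma adjusted p ran from 0.0633 to 0.171 for Mrpl14 and from 0.0615 to 0.170 for Mrpl23. A processed pseudogene of the latter, Mrpl23-ps1, was at 21.3 to 45.4 over the 6 libraries (log2 fold change 0.27, limma adjusted p = 0.725). How reads shared by such copies were counted is not given in the sources used here, so the value of Mrpl23 is uncertain to that extent. Without WT replicate 1, the log2 fold change was -0.23 for Mrpl14 and -0.23 for Mrpl23.

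The other large subunit genes at the lower end were Mrpl47, Mrpl57, Mrpl34 and Mrpl17, of which the first 2 are among the 8 members with the lowest fold change. Mrpl57, a gene of the mitochondria-specific part of the subunit, was at 2529, 2398 and 2445 across the WT libraries against 2253, 2357 and 2229 across the Ikzf4-/- libraries, and the genotypes did not overlap (log2 fold change of -0.11, SE 0.05, 95% interval -0.22 to 0.01, limma adjusted p = 0.301). Mrpl47, a tunnel exit protein, was at 706, 767 and 855 across the WT libraries against 777, 714 and 633 across the Ikzf4-/- libraries, with overlap (log2 fold change -0.13, limma adjusted p = 0.527). Mrpl34 and Mrpl17 had log2 fold changes of -0.09 and -0.08, and the latter was the last of the 4 Mrpl genes with lower values in every Ikzf4-/- library.

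At the upper end of the large subunit, Mrpl32 encodes a protein that the mitochondrial m-AAA protease must trim before the ribosome is assembled. It was at 935, 948 and 1131 across the WT libraries against 1179, 1134 and 1108 across the Ikzf4-/- libraries. WT replicate 3 reached the range of the Ikzf4-/- libraries, and the other WT libraries lay below it (log2 fold change of 0.19, SE 0.08, 95% interval 0.01 to 0.37, limma adjusted p = 0.257). Mrpl52 (ENSMUSG00000010406, chr14:54426909-54429756, plus strand), whose promoter with an ETS core is printed above, was at 1718, 1590.4 and 1831 across the WT libraries against 1991, 1861 and 1894 across the Ikzf4-/- libraries. Its genotypes did not overlap (log2 fold change of 0.16, SE 0.06, 95% interval 0.02 to 0.31, limma adjusted p = 0.215). Mrpl54, Mrpl45 and Mrpl42, all of them mitochondria-specific proteins, had log2 fold changes of 0.11, 0.09 and 0.08, with limma adjusted p-values from 0.426 to 0.586.

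Mrpl53, whose protein sits near the stalk of the large subunit, had the highest fold change of all members and the widest interval. It was at 71.3, 71.0 and 73.8 across the WT libraries against 130.1, 98.4 and 68.3 across the Ikzf4-/- libraries. Ikzf4-/- replicates 1 and 2 lay above the WT libraries and replicate 3 below them, so the fold change was within the spread between replicates (log2 fold change of 0.41, SE 0.24, 95% interval -0.12 to 0.93, limma adjusted p = 0.407). Without 1 library in turn its log2 fold change ran from 0.19 to 0.65. It was also the lowest member by level, with a mean of 85.5 where the next lowest, Mrpl47, had 742. In the GENCODE M21 annotation 88.0% of its exon bases are also exon bases of other genes. Among these is Gm42688 on the same strand, whose mean was 97.5. The part of this overlap in the level of Mrpl53 was not tested.

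**Figure D3:**
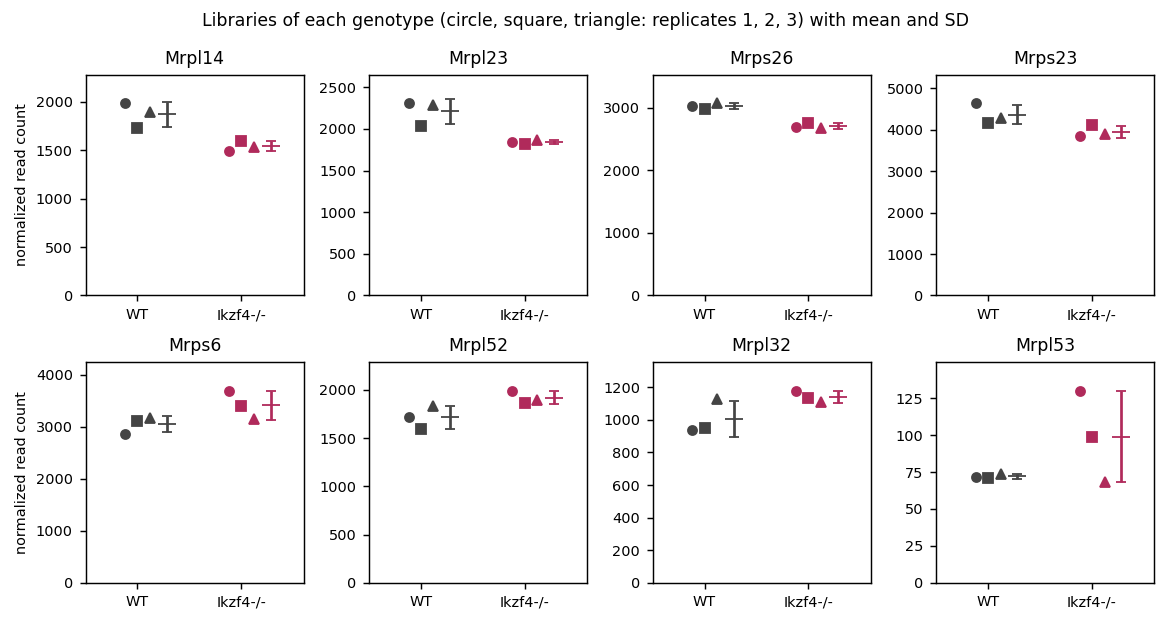
Normalized read count (y axis, from 0) of 8 members in each library, with the mean and SD of the 3 libraries of a genotype to the right of its points. For Mrpl14, Mrpl23, Mrps26, Mrps23 and Mrpl52 the genotypes do not overlap, while for Mrps6, Mrpl32 and Mrpl53 they do.

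In the small subunit, Mrps26 (ENSMUSG00000037740, chr2:130563742-130568695, plus strand) and Mrps23 (ENSMUSG00000023723, chr11:88204388-88211507, plus strand) had the lowest fold changes. Both encode mitochondria-specific proteins. Mrps26 was at 3032, 2982 and 3068 across the WT libraries against 2682, 2755 and 2671 across the Ikzf4-/- libraries, with WT values within a narrow range and every Ikzf4-/- value below it (log2 fold change of -0.16, SE 0.05, 95% interval -0.27 to -0.06, limma adjusted p = 0.101). Mrps23 was at 4635, 4172 and 4289.6 across the WT libraries against 3846, 4118 and 3897 across the Ikzf4-/- libraries, again without overlap (log2 fold change of -0.14, SE 0.05, 95% interval -0.26 to -0.02, limma adjusted p = 0.196). Neither passed in the authors' deposited table, with adjusted p-values of 0.0876 and 0.192. Mrps25, Mrps24 and Mrps34 followed, with log2 fold changes of -0.11, -0.09 and -0.09 and overlapping genotypes.

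At the other end, Mrps6 (ENSMUSG00000039680, chr16:92058270-92112227, plus strand), the counterpart of bacterial ribosomal protein S6, was at 2868, 3113 and 3165 across the WT libraries against 3693, 3394 and 3141 across the Ikzf4-/- libraries. Ikzf4-/- replicates 1 and 2 lay above all WT libraries, and replicate 3 lay between WT replicates 2 and 3 (log2 fold change of 0.16, SE 0.07, 95% interval 0.01 to 0.31, limma adjusted p = 0.236). Mrps33 and Mrps11 had log2 fold changes of 0.09 and 0.09 (limma adjusted p = 0.581 and 0.493). The only Mrps gene with higher values in every Ikzf4-/- library was Mrps17, the counterpart of bacterial S17, at a log2 fold change of 0.06 and chosen after its values were seen.

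A split by the current nomenclature gave similar values. The 45 proteins that it gives a bacterial counterpart had a median log2 fold change of 0.02 (range -0.28 to 0.19), and the 33 others 0.00 (range -0.16 to 0.41). The others include Mrps18a and Mrps18b, so this is not a split by ancestry. Some members sit elsewhere than their symbol says. Mrps18a and Mrps30 encode proteins found in the large subunit, and Mrps36 is now known as a component of the 2-oxoglutarate dehydrogenase complex. Mrps30 was at 822, 871 and 935 across the WT libraries against 876, 844 and 904 across the Ikzf4-/- libraries, and its log2 fold change was 0.00. The 3 mitochondrial relatives of bacterial S18 had log2 fold changes of 0.04 (Mrps18a), 0.06 (Mrps18b) and 0.00 (Mrps18c), and Mrps36 of 0.02. Mrpl58, a peptidyl-tRNA hydrolase built into the large subunit, had 0.00, and Mrpl12, a stalk protein that also binds mitochondrial RNA polymerase, -0.05. With the proteins placed by structure, the median was 0.02 for 51 large subunit genes and 0.01 for 26 small subunit genes.

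Between the ends of the order the members differed little. All members but the 8 at each end had log2 fold changes from -0.09 to 0.09 and limma adjusted p-values of at least 0.474. The groups that follow were drawn from known positions in the ribosome after the values were seen. At the stalk of the large subunit, where translation factors bind, the log2 fold changes were Mrpl10 -0.07, Mrpl11 0.04, Mrpl12 -0.05, Mrpl54 0.11 and Mrpl53 0.41. Around the tunnel exit, where the new peptide meets the inner membrane, they were Mrpl23 -0.26, Mrpl47 -0.13, Mrpl17 -0.08, Mrpl22 -0.04, Mrpl24 0.01 and Mrpl45 0.09. In the central protuberance, which faces the small subunit, they were Mrpl48 -0.04, Mrpl40 -0.02, Mrpl46 -0.01, Mrpl18 0.05 and Mrpl38 0.09. Some members in which mutations cause mitochondrial disease in people had log2 fold changes of Mrps34 -0.09, Mrps22 -0.06, Mrps2 -0.05, Mrps16 -0.05, Mrpl44 0.02, Mrpl3 0.03 and Mrps7 0.05. These are not a full list of such members, so their range does not describe disease genes as a group.

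Summed over genes, the mitochondrial ribosomal proteins took 0.429% to 0.453% of the summed values of the 14868 deposited genes in each library. The summed normalized read count of the 49 Mrpl genes was 103218, 101848 and 108438 across the WT libraries against 105713, 105239 and 103941 across the Ikzf4-/- libraries. For the 29 Mrps genes it was 57089, 55912 and 57947 in WT and 57761, 57022 and 55538 in Ikzf4-/-. Both sums were highest in WT replicate 3, and the genotypes overlapped in each. The ratio of the sums was 1.83 ± 0.0333 in WT and 1.85 ± 0.0209 in Ikzf4-/- libraries (SD, n = 3 each). In WT replicate 3, 63 of 78 members lay above their own 6-library mean. The count was 27 and 22 in the other WT libraries and 51, 43 and 27 in Ikzf4-/- replicates 1 to 3. The same count was not made over other genes, so this pattern is not shown to be particular to the members. The median deviation of the members from their 6-library mean ran from -0.03 to 0.04 on the log2 scale. Genotype averages were -0.00518 ± 0.0406 and 0.00297 ± 0.0262 (SD, n = 3 each), so the genotypes differed by less than the libraries within them.

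**Figure D4:**
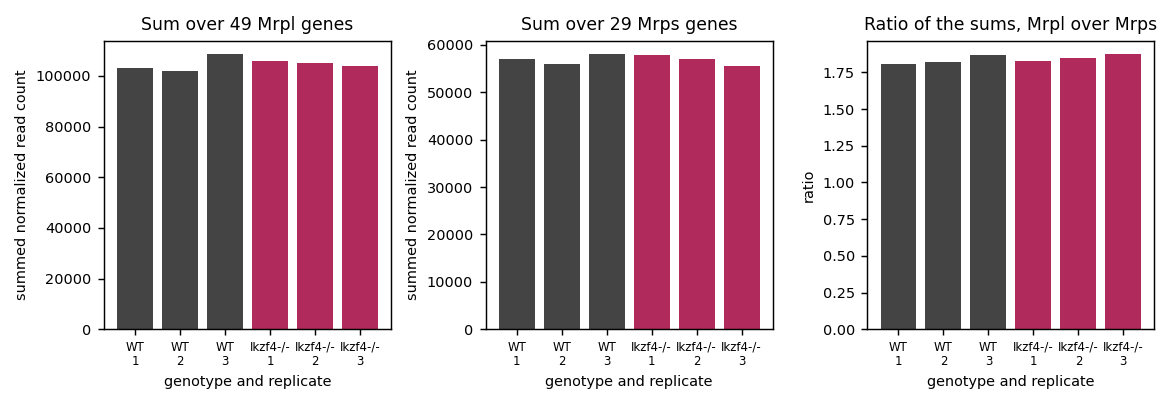
Summed normalized read count of the Mrpl genes (left) and the Mrps genes (middle) and the ratio of these sums (right) in each library, WT in grey and Ikzf4-/- in red. The libraries of the 2 genotypes overlap in all 3 panels, and WT replicate 3 has the highest sums.

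Levels per length, that is, the mean normalized read count over the 6 libraries divided by the length in kilobases of the principal transcript, differed more between members than between genotypes. The median was 1465 per kilobase, with quartiles at 765 and 2407. The highest levels per length were those of Mrpl42 (4959), Mrpl52 (4341), Mrps6 (3817), Mrps21 (3780.4) and Mrps34 (3739). The lowest were those of Mrpl53 (123), Mrps25 (197), Mrpl47 (221), Mrps35 (263) and Mrps30 (264). Mrpl12, which the ribosome holds in several copies, came eighth at 3227. Among these 10 genes at the ends, the levels per length of the genotypes were closest, in percent of the WT level, for Mrps30 (264 in WT and 263 in Ikzf4-/- libraries) and farthest apart for Mrpl53 (104 and 142), followed by Mrps6 (3604 and 4030.2) and Mrpl52 (4099 and 4582). The order depends on the length used: over the length of all annotated exons, Mrpl42 was at 897 per kilobase and Mrpl52 at 1636. Besides Mrpl53, 6 members share over 25% of their exon bases with other genes, so their levels are uncertain. They include Mrps34 (77.8%, Nme3 among the other genes) and Mrps25 (69.8%, Nr2c2 on the opposite strand among the other genes).

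The members lie on 17 chromosomes, with most, 11, on chromosome 11 and 8 on chromosome 17. Some have a head-to-head neighbour. A start on the opposite strand lay within 1000 bases upstream for 21 of 78 members (26.9%), against 11.1% of 12415 tested genes with a coding transcript, a median of 116 bases apart. In 1 case both genes are members: Mrpl46 and Mrps11 start 30 bases apart, with log2 fold changes of -0.01 and 0.09. Another pairs Mrps12, of the decoding centre, with Sars2, the mitochondrial seryl-tRNA synthetase (-0.03 and 0.10), and Mrpl43 lies head to head with Twnk, the mitochondrial DNA helicase (-0.04 and -0.05). Of 20 partners tested, limma called 0, with 2 at an unadjusted p under 0.05 and 1 in the authors' deposited table (Ppp1r10, partner of Mrps18b), and their log2 fold changes ran from -0.16 to 0.28.

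The lists of related genes of mitochondrial translation held none that limma called. Of mitochondrial ribosomal proteins with other symbols, 0 of 5 genes was called by limma (2 at an unadjusted p under 0.05, 0 in the authors' deposited table). Aurkaip1, a small subunit protein, had the lowest log2 fold change (-0.14, at 3646, 3459 and 3708 across the WT libraries against 3279.6, 3415 and 3122 across the Ikzf4-/- libraries, without overlap) and Ptcd3, another, the highest (0.05). Among factors of ribosome assembly and rRNA modification 0 of 24 genes was called by limma (1 at an unadjusted p under 0.05, 0 in the authors' deposited table), with a median of 0.03, from Mettl15, an rRNA methyltransferase (-0.28), to Nsun4, another (0.15). Among translation factors 0 of 15 genes was called by limma (1 at an unadjusted p under 0.05, 0 in the authors' deposited table), with a median of 0.05, from Slirp, which protects mitochondrial mRNA (-0.03), to the release factor gene Mtrf1 (0.24). A further gene of this list, Mtrfr, was not matched by symbol. Among mitochondrial aminoacyl-tRNA synthetases 0 of 17 genes was called by limma (3 at an unadjusted p under 0.05, 0 in the authors' deposited table), with a median of 0.05, from Lars2 (-0.06) to Wars2 (0.30). The value of Lars2 depends on single libraries, at 0.14 without WT replicate 3 and 0.07 without Ikzf4-/- replicate 1, and that of Slirp ran from -0.12 to 0.03 without 1 library in turn. Wars2 was at 233, 258 and 253 across the WT libraries against 304, 318 and 294 across the Ikzf4-/- libraries, without overlap (log2 fold change of 0.30, SE 0.11, 95% interval 0.06 to 0.54, limma adjusted p = 0.176). Among genes of mitochondrial transcription 0 of 6 genes was called by limma (0 at an unadjusted p under 0.05, 0 in the authors' deposited table), with a median of 0.04, from the termination factor gene Mterf1a (-0.09) to Tfam, which packages mitochondrial DNA (0.07).

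The transcripts that this ribosome translates are the mRNAs of mitochondrial DNA. Of these, 0 of 13 genes was called by limma, and 1 passed in the authors' deposited table. At an unadjusted p under 0.05 there were 5, all higher in Ikzf4-/- cells (38.5%, against 18.1% of all genes tested). The median log2 fold change was 0.12, with 12 of 13 above 0, where 7621 of the 14864 genes tested lay above 0. Whether the 13 genes vary independently of each other was not tested, so these counts are a description and not 13 separate observations. The gene that passed in the authors' deposited table was mt-Nd6, a complex I subunit, at 6858, 6721 and 7594 across the WT libraries against 9024, 8072 and 7967 across the Ikzf4-/- libraries. Every Ikzf4-/- library lay above every WT library (log2 fold change of 0.24, SE 0.06, 95% interval 0.11 to 0.38, limma adjusted p = 0.0778, adjusted p = 0.0102 in the authors' deposited table). The lowest fold change was that of mt-Nd3 (-0.20) and the highest that of mt-Atp8 (0.49), which had only 22.5 ± 6.13 normalized reads in WT (SD, n = 3). Means in WT were also low for mt-Atp6 (41.3), mt-Co2 (44.3), mt-Nd4l (63.9) and mt-Co3 (141). Against this, mt-Co1 had 222144 ± 10152, with a log2 fold change of 0.01. Nuclear genomes hold near-identical copies of mitochondrial DNA, and how reads shared with them were counted is not given in the sources used here, so these levels are uncertain and their part in the fold changes was not tested. The rRNA genes mt-Rnr1 and mt-Rnr2 were not analysed here.

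**Figure D5:**
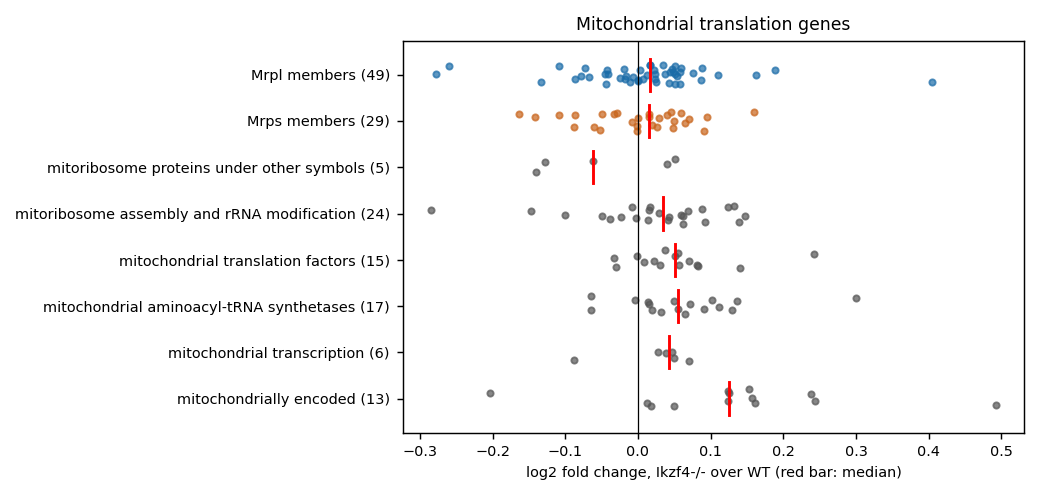
Log2 fold change (x axis, Ikzf4-/- over WT) of each gene (points, spread vertically for clarity) in the Mrpl and Mrps members and in 6 lists of related genes, with the number of genes in brackets and the median as a red bar. The medians of both member groups lie at 0.01 to 0.02 and that of the mitochondrially encoded mRNAs at 0.12.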

How the data were processed

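RNA was sequenced from 3 WT and 3 Ikzf4-/- libraries, grouped and numbered by the labels. Library preparation and primary analysis were done by a service company, per the labels' protocols. The submitters' processing notes name Trimmomatic 0.36, STAR 2.5.2b, DESeq2 and the builds GRCm38 and mm10, without their roles, and the counting tool is not given in the sources used here. The sample columns deposited by the authors hold a never-negative signal taken here for normalized read counts: divided by the step of its library, 100% of values were whole within 0.02. Read recovery is less certain for 2 of the Ikzf4-/- libraries, whose step is close to 1, and no count test was run. The authors' log2 fold changes and their p-values and adjusted p-values are from the same deposited table.

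Values were transformed to log2(value + 1), and the 14864 genes with a mean of at least 10 were fitted with genotype as the only term by limma 3.58.1 in R 4.3.3 (limma-trend, two-sided, Benjamini-Hochberg over all genes tested, called under 0.05). All 78 members passed this filter, with at least 67 implied reads per library (at least 630 without Mrpl53). Intervals are pointwise 95% intervals of the moderated fit. The procedure was tested on simulated data in which the true changes were larger than the fold change of any member. How often it calls changes of the members' size was not tested. Positions and lengths are from GENCODE M21 (GRCm38), 1-based. Genes named were Ikzf4, the 8 members at either end by fold change, the 5 at each end by level per length, 7 members with a role or place outside their name, and, since none of their genes was called, the ends of each related list. Others were chosen after their values were seen. The members and lists were chosen with earlier results of these data known. Alternatives were other scalings, filters and pseudocounts, the replicate block, leaving out each library and the authors' comparison.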

Additional observations from a re-analysis of the deposited data

How the results depend on the processing

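Under quantile, upper quartile and equal-total scaling, both other filters and both other pseudocounts, 0 members were called, as on all libraries, and 256 to 283 genes were called over all genes, against 263. Leaving out 1 library gave 0 called members in each of the 6 fits. Over all genes these fits called from 20 (without Ikzf4-/- replicate 3) to 523 (without WT replicate 3), with 48 and 112 without Ikzf4-/- replicates 1 and 2, 75 without WT replicate 2 and 269 without WT replicate 1. With the replicate number as a block there were 754 called genes and 2 called members, Mrpl14 (adjusted p = 0.0449) and Mrpl23 (0.0308). Deviations of same-numbered libraries correlated at 0.145, 0.0122 and 0.142, and WT replicate 2 correlated best with Ikzf4-/- replicate 3, which does not establish a pairing. The authors' deposited table passed 815 genes and the same 2 members, and the cause was not tested. The median log2 fold change of the members was 0.02 to 0.04 under other settings (highest with equal totals, which moved all genes by 0.03) and -0.00281 to 0.0394 without 1 library, so its sign was not the same in all fits. Of 27 named members, 19 kept the sign of their fold change under all 15 alternatives, and the others had absolute log2 fold changes of at most 0.0474 where it changed. At the median standard error of the members, a 1.21-fold change was needed for a call in the fit without the block.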
